A study of Mus musculus with 6 samples.

Results

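The epithelium that covers the intestinal villi sends protein signals to the connective tissue, smooth muscle and vessels beneath it. Transcripts of 5 such ligands were examined in villus epithelium of double mutant and wild-type mice: Ihh and Shh (hedgehog ligands), Pdgfa (platelet-derived growth factor A), Vegfa (vascular endothelial growth factor A) and Edn1 (endothelin 1). The genes were chosen by symbol, and each of the 5 matched 1 row among the 20409 features of the count table. Of the 5, 4 passed the filter on low counts, as did 13346 features in all, and Shh did not.

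Duodenal villi were separated from the mesenchyme by EDTA, kept on a filter, and sequenced as 1 library of polyadenylated RNA per mouse. The double mutant mice (DMV, n = 3) were Smad4 fl/fl; Ctnnb exon3 fl/wt; Villin-CreERT2 on a C57BL6-enriched background. Tamoxifen, given by 4 intraperitoneal injections of 0.05 g/kg, removed Smad4 and exon 3 of the β-catenin gene in the epithelium, and villi were taken 7 days after induction. The wild-type mice (WTV, n = 3) were littermates that received no tamoxifen, so the mutations and tamoxifen itself cannot be told apart. Each group held 1 male (mouse 1) and 2 females of matched age, which the sources used here do not give in number. Villin-Cre acts in the whole intestinal epithelium and not in the stroma that receives these ligands.

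Hedgehog ligands are lipid-modified proteins that leave the epithelium, bind Patched on mesenchymal cells, and so release Smoothened, which turns on GLI transcription factors. In the intestine, Ihh is the main ligand of the differentiated epithelium, PDGF-A acts on the PDGF receptor alpha of villus fibroblasts, and VEGF-A acts on receptors of the endothelium. Endothelins are cut from larger precursors by endothelin converting enzymes and act on G protein-coupled receptors of vascular, smooth muscle and neural cells.

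Libraries held 19678507 to 26337318 counts. Smad4, the deleted gene, fell from 148 ± 30.3 CPM (counts scaled to a common library size by TMM) in the wild-type to 31.7 ± 5.40 CPM in the double mutant (mean ± SD, n = 3 each; log2 fold change −2.22, SE 0.187, adjusted p = 0.000145, edgeR). Ctnnb1, from which an exon is removed but which is still transcribed, was at 932 ± 53.6 and 841 ± 79.7 CPM (adjusted p = 0.359). Epithelial markers were abundant in every library, at 10132 to 12765 CPM summed over 10 genes. Fibroblast and pericyte markers (10 genes) summed to 2.58 to 4.41 CPM in the wild-type and 5.79 to 6.31 CPM in the double mutant, with 3 to 6 of the genes at 0. Smooth muscle markers (7 genes) summed to 13.4 CPM in double mutant mouse 1 and to 4.46 to 7.99 CPM in the other mice. Wild-type mouse 1 stood apart in goblet cell markers, at 119 CPM against 10836 and 11485 CPM in the other wild-type mice and 4385 to 4849 CPM in the double mutant. Across all tested features, 4905 passed an adjusted p of 0.05, 2632 of them higher and 2273 lower in the double mutant. With scaling by library size alone the split was 3732 higher and 1425 lower, and the median log2 fold change of all features moved from 0.02 to 0.22.

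Edn1 was the only one of the 4 tested ligands to pass an adjusted p of 0.05, and it was lower in the double mutant. Of all tested features 36.8% passed, 19.7% as higher and 17.0% as lower. Measured as log2 fold changes, the 4 had a median of −0.25, against 0.02 over all tested features. The groups did not overlap for Ihh and Edn1, 2 of the 4, both lower in the double mutant. Of all tested features, 52.4% did not overlap between the groups and 24.2% did not overlap and were lower. In the plot of the 5 ligands by mouse, the drop of Edn1 stood beside overlapping values of Pdgfa and widely spread Vegfa.

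**Figure D1:**
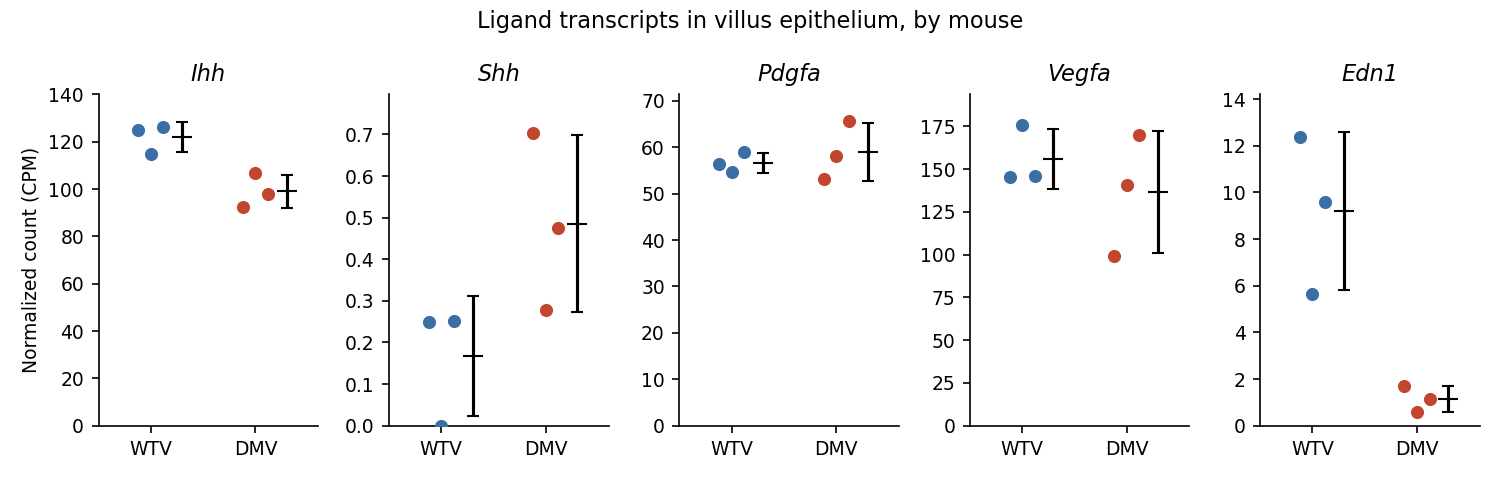
TMM-scaled CPM (linear axes from 0, each panel with its own range) of the 5 ligands in 3 wild-type (WTV, blue) and 3 double mutant (DMV, red) mice. Points are mice 1 to 3 from left to right in each group, and black bars give the mean ± SD. Edn1 was at 5.66 to 12.4 CPM in the wild-type and 0.603 to 1.69 CPM in the double mutant, while the groups overlapped for Pdgfa and Vegfa.

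Per kilobase of annotated exon, the order of the ligand transcripts in the wild-type was Ihh, Vegfa, Pdgfa, Edn1 and Shh. Their levels were 46.6 to 51.2 CPM per kb for Ihh, 33.8 to 41.0 for Vegfa, 17.5 to 18.9 for Pdgfa, 2.41 to 5.28 for Edn1 and 0 to 0.0939 for Shh, with no overlap between neighbours. In the double mutant the same order held for the means, but neighbours met in 2 places. Ihh, at 37.5 to 43.2 CPM per kb, overlapped Vegfa, at 23.1 to 39.6, and Edn1, at 0.257 to 0.721, overlapped Shh, at 0.103 to 0.262. Pdgfa, at 17.0 to 21.0 CPM per kb, lay between these pairs.

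Ihh (ENSMUSG00000006538, chr1:74991891-74998246, minus strand, mm9) made up nearly all hedgehog ligand transcript in both groups. It was at 125, 115 and 126 CPM in wild-type mice 1 to 3 and at 92.6, 107 and 97.8 CPM in double mutant mice 1 to 3 and the groups did not overlap, with the double mutant lower. The means were 122 ± 6.21 and 99.0 ± 7.08 CPM, a 1.23-fold difference that missed the threshold over all genes in edgeR (log2 fold change −0.30, SE 0.106, 95% confidence interval −0.54 to −0.06, adjusted p = 0.0536). With the size factors of DESeq2 (RLE) in place of TMM it passed (log2 fold change −0.33, adjusted p = 0.0413), as it did in DESeq2 itself (adjusted p = 0.0265). It missed the threshold in the other alternatives, including library size alone (log2 fold change −0.11, adjusted p = 0.449), the females alone (adjusted p = 0.149) and each fit with 1 mouse left out (adjusted p from 0.0608 to 0.154). Relative to the median of all features, Ihh was at −0.32 with TMM and with library size alone. As a share of the summed per-kilobase levels of Ihh, Shh and Dhh, Ihh was 99.4% ± 0.417 in the wild-type and 99.1% ± 0.273 in the double mutant.

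Shh (ENSMUSG00000002633, chr5:28783355-28793641, minus strand) was close to undetected. It had 6, 0 and 5 counts in the wild-type mice and 15, 6 and 10 counts in the double mutant mice, and the groups met at 6 counts. Scaled for depth they did not overlap, with 0.253 CPM the highest of the wild-type and 0.278 CPM the lowest of the double mutant. The 0 in wild-type mouse 2 allows up to 0.163 CPM (3 counts of that library), which covers counting error only. Without the filter on low counts the log2 fold change was 1.48 (SE 0.891) and the adjusted p was 0.276 in edgeR, so no difference was detectable at this depth. Exons of Shh overlap 2 noncoding transcripts of the opposite strand in the annotation, and the strand setting of the counting is not given in the sources used here, so these few counts cannot be assigned to Shh with certainty. Dhh, the other hedgehog ligand, had 0 to 20 counts and an adjusted p of 0.795.

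Among 10 genes for hedgehog ligands and their release, 5 were tested, 1 was lower and none was higher, with a median log2 fold change of −0.30. Disp2, a member of the Dispatched family whose relative DISP1 releases lipid-modified hedgehog from cells, was the 1 that fell. It was at 4.83, 4.84 and 3.39 CPM in the wild-type and 2.02, 2.18 and 1.52 CPM in the double mutant, without overlap (log2 fold change −1.19, SE 0.287, adjusted p = 0.0126). Without double mutant mouse 3 its adjusted p was 0.0503, and the count of called genes in this list was 0. Hhat, which attaches palmitate to the ligands, and the sheddase Adam17 did not pass, and Disp1 was not analysed here.

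Of 12 genes for hedgehog reception and transduction, 4 were tested and none passed in edgeR (1 had an unadjusted p under 0.05), in DESeq2 or in limma-voom. Ptch1, receptor and target gene of the pathway, had 95, 107 and 106 counts in the wild-type and 114, 74 and 108 in the double mutant, with overlap (log2 fold change −0.12, SE 0.263, adjusted p = 0.755). Its direction turned with library size alone (0.07) and without double mutant mouse 2 (0.06). Smo, which encodes Smoothened, had 0, 9 and 12 counts in the wild-type and 26, 41 and 24 in the double mutant, without overlap (log2 fold change 1.99, SE 0.816, adjusted p = 0.0889). Without wild-type mouse 1, which had the count of 0, Smo passed (log2 fold change 1.36, adjusted p = 0.0455), and the called genes of this list numbered 1. Smo was larger but did not pass in limma-voom (log2 fold change 3.04, adjusted p = 0.0502). The same held in edgeR without wild-type mouse 3 (log2 fold change 2.61, adjusted p = 0.0886). Gli1 and Hhip, further target genes, were not analysed here, and 2 of the 10 listed target genes were tested. Neither passed in edgeR, in DESeq2 or in limma-voom, and in edgeR neither had an unadjusted p under 0.05.

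Pdgfa (ENSMUSG00000025856, chr5:139451968-139473324, minus strand) did not pass a test between the groups. Its values were 56.4, 54.6 and 58.9 CPM in the wild-type and 53.1, 58.2 and 65.6 CPM in the double mutant, and the double mutant range enclosed the wild-type range. The log2 fold change was 0.06 (SE 0.116, 95% confidence interval −0.21 to 0.32, adjusted p = 0.726, edgeR). Without double mutant mouse 3, the highest of the 6, the value was −0.02, and with library size alone it was 0.25 (adjusted p = 0.124). An exon of a protein-coding gene of the opposite strand, 6330403L08Rik, overlaps Pdgfa, and reads from both cannot be told apart if strand was not used.

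Of the 7 genes for PDGF ligands and receptors, 4 were tested and 1, Pdgfb, was higher. Pdgfb, the ligand that endothelial cells use to recruit pericytes, had 19, 6 and 14 counts in the wild-type and 42, 27 and 56 in the double mutant (log2 fold change 1.66, SE 0.469, adjusted p = 0.0237). The groups did not overlap, but the counts were low and the call was lost without wild-type mouse 2 (adjusted p = 0.0681), wild-type mouse 3 (0.0515), double mutant mouse 1 (0.0619) or double mutant mouse 3 (0.0995). In those fits the list held 0 called genes. Without wild-type mouse 1 it held 2, 1 higher and 1 lower. Per kilobase, Pdgfb was 0.965% ± 0.409 of the summed Pdgfa, Pdgfb and Pdgfc in the wild-type and 3.02% ± 0.913 in the double mutant, and Pdgfa was 83.6% ± 3.85 and 85.5% ± 1.95. The receptors were nearly absent: Pdgfra had at most 1 count in any mouse. Pdgfrb had 12, 4 and 14 counts in the wild-type and 16, 2 and 13 in the double mutant (log2 fold change 0.02, SE 0.734, adjusted p = 0.983), and its sign changed with the scaling.

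Vegfa (ENSMUSG00000023951, chr17:46153942-46169326, minus strand) varied more among the double mutant mice than between the groups. It was at 145, 176 and 146 CPM in the wild-type and at 99.1, 141 and 170 CPM in the double mutant, so 1 double mutant mouse lay well below the wild-type range, 1 just below it and 1 inside it. The log2 fold change was −0.19 (SE 0.191, 95% confidence interval −0.62 to 0.25, adjusted p = 0.470, edgeR). Without double mutant mouse 1, the lowest and the only male of its group, it was 0.01, and with library size alone it was 0.00. Relative to the median of all features it was −0.21 under both scalings.

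Of 10 genes for VEGF ligands and receptors, 5 were tested and 1, Vegfb, was higher. Vegfb, a ligand of the receptor FLT1, had 51, 32 and 51 counts in the wild-type and 133, 102 and 107 in the double mutant, with every double mutant mouse at or above 4.73 CPM and no wild-type mouse above 2.58 CPM. The log2 fold change was 1.31 (SE 0.262, adjusted p = 0.00548), and it passed with any 1 mouse left out. Its share of the summed per-kilobase levels of Vegfa, Vegfb and Vegfc was 3.47% ± 0.903 in the wild-type and 9.56% ± 3.59 in the double mutant. Vegfc, the lymphatic ligand, had an adjusted p of 0.815. Of the receptors, Kdr had 2 counts in 1 mouse and 0 in the others, and Flt1 was not analysed here. The coreceptors Nrp1 and Nrp2 were at 0.282 to 0.916 and 0.423 to 1.26 CPM, with overlapping groups and log2 fold changes of −0.85 (SE 0.505, adjusted p = 0.221) and −0.78 (SE 0.464, adjusted p = 0.219).

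**Figure D2:**
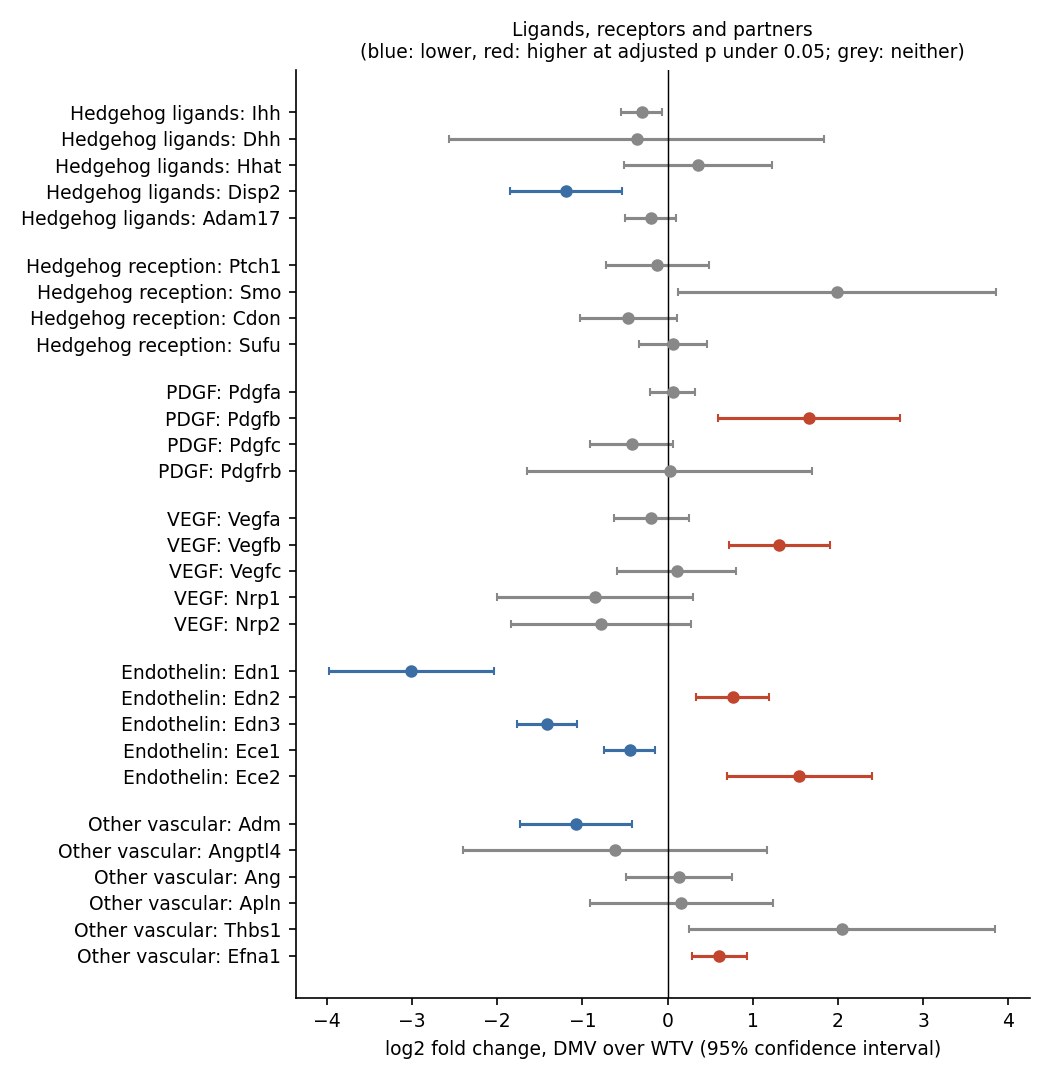
Log2 fold change of the double mutant over the wild-type (point) with its 95% confidence interval (bar) for the tested genes of 6 signalling lists, from edgeR on 3 against 3 mice. Blue points passed an adjusted p of 0.05 over all genes as lower, red points as higher, and grey points did not pass. All 5 tested endothelin genes are coloured, with Edn1 farthest to the left, while Ihh, Pdgfa and Vegfa are grey, and the interval of Ihh lies just below 0.

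Because VEGF-A is a classic target of hypoxia-inducible factor (HIF), 20 genes that respond to low oxygen were set beside it. Of these, 19 were tested, 6 were higher, 4 were lower and 9 did not pass, with a median log2 fold change of 0.18. Over all features, 19.7% were higher and 17.0% lower. Ankrd37, a HIF target, rose from 7.98 ± 0.490 to 29.1 ± 1.41 CPM (log2 fold change 1.87, SE 0.132, adjusted p = 7.31e-05). Car9, a carbonic anhydrase that exports acid from hypoxic cells, rose from 74.3 ± 18.5 to 236 ± 8.66 CPM (log2 fold change 1.67, SE 0.181, adjusted p = 0.000379). Pdk1, a kinase that inhibits pyruvate dehydrogenase, rose from 27.3 ± 1.83 to 73.5 ± 3.58 CPM (log2 fold change 1.43, SE 0.111, adjusted p = 0.000111). Egln3, a prolyl hydroxylase that marks HIF for destruction and is itself a HIF target, went the other way, from 286 ± 51.0 to 106 ± 12.9 CPM (log2 fold change −1.43, SE 0.156, adjusted p = 0.000379). Vegfa lay between them. Exons of Ankrd37 and Car9 overlap genes of the opposite strand.

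**Figure D3:**
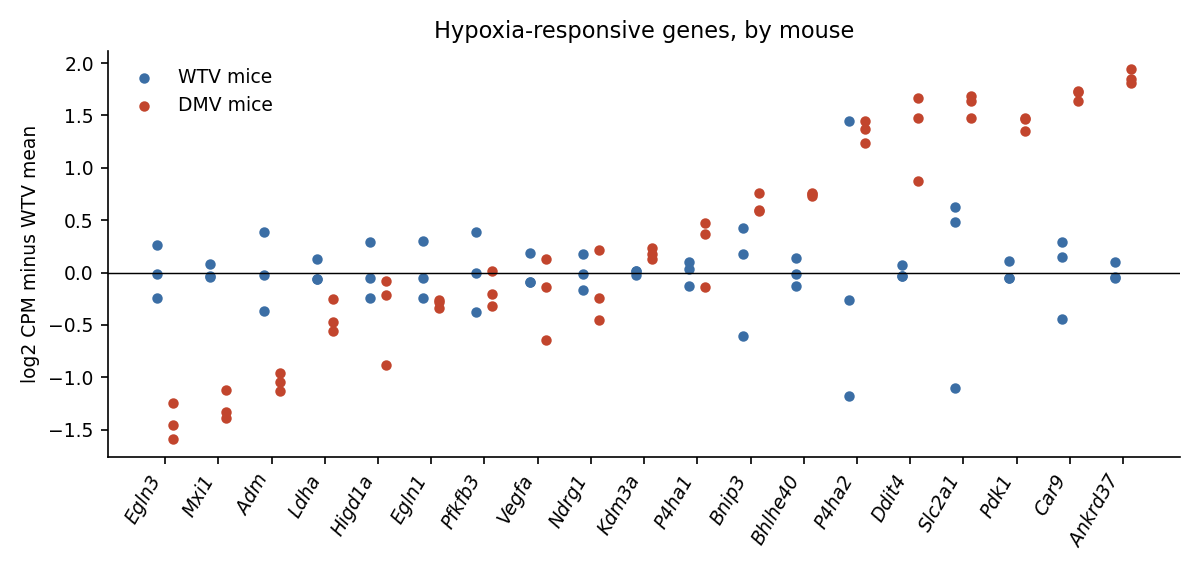
Log2 CPM of the 19 tested hypoxia-responsive genes in each mouse, minus the wild-type mean of that gene (vertical axis), with wild-type mice in blue and double mutant mice in red, ordered by the fitted fold change. Vegfa lies in the middle with overlapping groups, Egln3 at the left with double mutant mice below the wild-type, and Pdk1, Car9 and Ankrd37 at the right with double mutant mice above it.

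Among 7 genes for the HIF subunits and their regulators, 6 were tested and 1 passed. Hif1a, the oxygen-sensitive subunit, was at 112, 110 and 69.3 CPM in the wild-type and 73.0, 64.1 and 61.6 CPM in the double mutant, with overlap (log2 fold change −0.56, SE 0.186, adjusted p = 0.0458). The call held without wild-type mouse 3 and was lost without any other mouse (adjusted p = 0.0916 without wild-type mouse 1, 0.142 without wild-type mouse 2, 0.0701, 0.120 and 0.142 without double mutant mice 1, 2 and 3). It was also lost in limma-voom (0.0598), with library size alone (0.146) and in the females alone (0.0869). Hif1a overlaps a noncoding gene of the opposite strand.

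Other factors that act on vessels numbered 10, of which 6 were tested, 1 was higher and 1 was lower. Adm (adrenomedullin, a vasodilator peptide) had 96, 58 and 105 counts in the wild-type and 42, 40 and 44 in the double mutant, without overlap (log2 fold change −1.07, SE 0.288, adjusted p = 0.0194). This call was lost without wild-type mouse 3 (adjusted p = 0.0693) or double mutant mouse 1 (0.0544), 2 (0.0664) or 3 (0.0534), and the list then held 1 called gene. Efna1, an ephrin ligand, rose from 103, 81.2 and 95.8 CPM to 119, 154 and 152 CPM (log2 fold change 0.60, SE 0.142, adjusted p = 0.0111) and passed with any 1 mouse left out.

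Edn1 (ENSMUSG00000021367, chr13:42396639-42403358, plus strand) fell 8.04-fold. It had 297, 104 and 190 counts in wild-type mice 1 to 3 and 36, 13 and 24 counts in double mutant mice 1 to 3, which is 12.4, 5.66 and 9.60 CPM against 1.69, 0.603 and 1.14 CPM. The lowest wild-type mouse lay above the highest double mutant mouse. The means were 9.21 ± 3.37 and 1.14 ± 0.544 CPM (log2 fold change −3.01, SE 0.423, 95% confidence interval −3.97 to −2.04, adjusted p = 0.00120, edgeR). Leaving out each mouse in turn gave −3.39 to −2.70, with adjusted p values from 0.000673 to 0.00825, and the females alone, which leaves out wild-type mouse 1, gave −3.12 (adjusted p = 0.000552). In a bulk sample, fewer cells of a type and less RNA per cell cannot be told apart.

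The endothelin genes moved in both directions. Of 7 genes, 5 were tested and all 5 passed, 2 as higher and 3 as lower, with a median log2 fold change of −0.45. For all 5 the groups did not overlap. Over all features, 36.8% passed and 52.4% did not overlap. Edn3 (endothelin 3, chr2:174586120-174609543) fell from 64.1, 81.4 and 66.4 CPM to 22.2, 27.2 and 30.0 CPM (log2 fold change −1.42, SE 0.154, adjusted p = 0.000374), and it passed with any 1 mouse left out. Edn2 (endothelin 2, chr4:119833811-119839965) rose from 14.3, 10.5 and 12.8 CPM to 17.2, 21.4 and 25.5 CPM (log2 fold change 0.77, SE 0.189, adjusted p = 0.0136). The call for Edn2 was lost without wild-type mouse 2 (adjusted p = 0.0515) or double mutant mouse 3 (adjusted p = 0.0576), with the direction the same.

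The bases just before the annotated start of the 3 endothelin genes were set side by side because the genes lie on different chromosomes and moved in different directions. Each run is the 250 bases before the start in the GENCODE annotation of mm9, 5′ to 3′ on the gene's strand, and none of them holds an annotated exon base. The windows are chr13:42396389-42396638 for Edn1, chr4:119833561-119833810 for Edn2 and chr2:174585870-174586119 for Edn3. Capitals mark a match to CTTTGA (core of TCF/LEF, the partners of β-catenin), ACGTG or GCGTG (HIF cores), or GTCTAGAC (the SMAD palindrome), searched on both strands.
Edn1: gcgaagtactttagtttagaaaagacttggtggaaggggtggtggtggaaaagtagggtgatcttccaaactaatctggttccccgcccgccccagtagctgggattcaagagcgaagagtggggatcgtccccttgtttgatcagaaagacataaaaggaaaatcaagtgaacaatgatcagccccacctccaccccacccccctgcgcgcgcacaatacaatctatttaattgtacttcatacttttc
Edn2: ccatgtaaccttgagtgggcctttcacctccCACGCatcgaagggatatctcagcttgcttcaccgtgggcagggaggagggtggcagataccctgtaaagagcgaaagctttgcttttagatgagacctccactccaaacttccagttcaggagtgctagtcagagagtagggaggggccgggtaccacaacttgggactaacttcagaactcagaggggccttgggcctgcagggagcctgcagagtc
Edn3: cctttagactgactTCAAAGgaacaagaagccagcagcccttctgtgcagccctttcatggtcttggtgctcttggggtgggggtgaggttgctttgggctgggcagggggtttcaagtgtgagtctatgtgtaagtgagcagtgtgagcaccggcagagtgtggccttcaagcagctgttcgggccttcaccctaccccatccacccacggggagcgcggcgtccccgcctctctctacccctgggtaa

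The Edn1 window holds none of these letters. The RefSeq annotation places the Edn1 start elsewhere, where the bases before it overlap an exon of the GENCODE annotation. Bases outside these windows were not searched, so the lack of a match holds for this window only. The Edn2 window holds 1 GCGTG, read on the opposite strand as CACGC and starting 219 bases before the gene, and the Edn3 window holds 1 CTTTGA, read on the opposite strand as TCAAAG and starting 236 bases before the gene. Of the same windows of 20029 annotated genes of the table, 12.5% held CTTTGA, 18.5% ACGTG, 35.3% GCGTG and 0.175% GTCTAGAC. No match overlapped another. A match of letters is a description of the sequence and was not tested as a binding site.

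By level per kilobase, the mix of the 3 endothelin ligands changed from mostly Edn3 to mostly Edn2. Edn1 was 13.2% ± 4.58 of the sum in the wild-type and 2.38% ± 1.47 in the double mutant, Edn2 was 28.9% ± 3.95 and 67.7% ± 1.71, and Edn3 was 57.9% ± 8.51 and 29.9% ± 0.943. The groups did not overlap for any of these shares. The sum itself was 29.7 ± 0.859 CPM per kb in the wild-type and 21.5 ± 3.65 in the double mutant. These shares were not tested apart from the fits of the single genes.

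**Figure D4:**
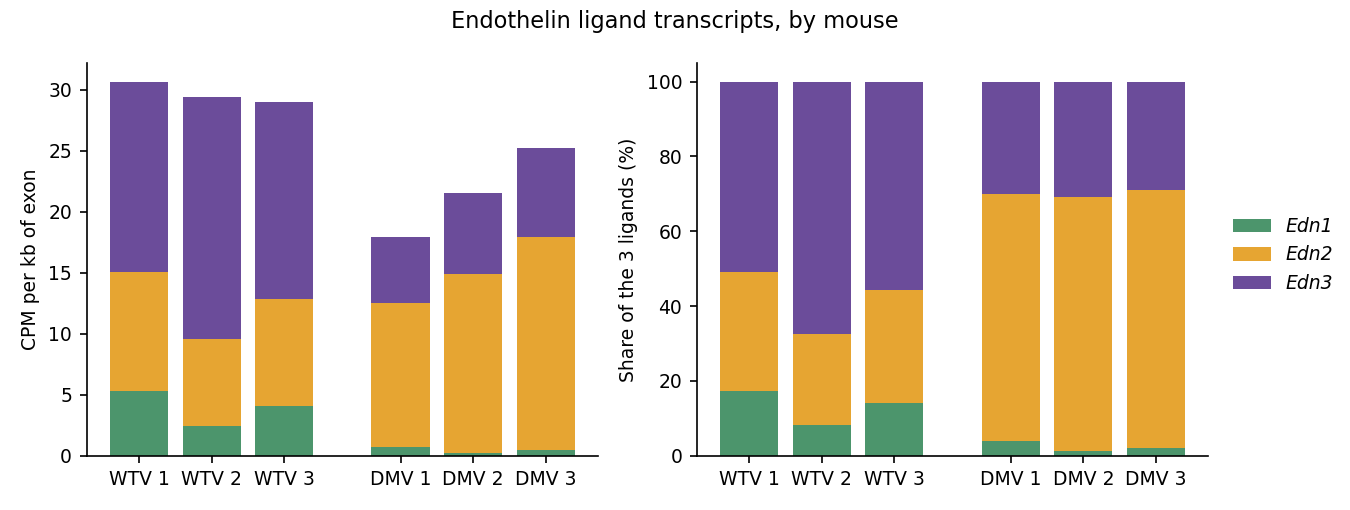
Endothelin ligand transcripts per mouse, as CPM per kb of annotated exon (left, stacked bars from 0) and as a share of the sum of the 3 ligands (right, percent). Edn1 (green) and Edn3 (purple) shrink and Edn2 (yellow) grows from the wild-type (WTV) to the double mutant (DMV) mice. Edn2 was 24.4% to 32.0% of the sum in the wild-type and 65.8% to 69.2% in the double mutant.

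Both converting enzymes, which cut the inactive precursor to the active peptide, passed in opposite directions. Ece2 had 22, 18 and 37 counts in the wild-type and 78, 97 and 60 in the double mutant (log2 fold change 1.55, SE 0.374, adjusted p = 0.0126), a call lost without double mutant mouse 2 (adjusted p = 0.0558). Ece1, named after its value was seen, was far more abundant, at 21.8 CPM per kb in the wild-type against 0.192 for Ece2, and fell from 115 ± 8.22 to 84.7 ± 11.9 CPM (log2 fold change −0.45, SE 0.131, adjusted p = 0.0278). Its call was lost without wild-type mouse 2 (adjusted p = 0.0933) or 3 (0.0640), without double mutant mouse 2 (0.0786) and with library size alone (0.176). Without wild-type mouse 2 or double mutant mouse 2, 3 of the 5 endothelin genes passed. Of the receptors, Ednrb had 2 counts in 1 mouse and 0 in the others, and Ednra was not analysed here.

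Markers of several epithelial cell types moved together with Edn1. Their counts stand beside 17.0% of all features lower and 19.7% higher. Tuft cell markers (5 genes) summed to 82.6 to 111 CPM in the wild-type and 11.9 to 13.4 CPM in the double mutant, and 4 of 4 tested were lower. Enteroendocrine markers (7 genes) summed to 235 to 322 and 97.0 to 107 CPM, with 6 of 7 lower, and villus-tip enterocyte markers (9 genes) to 13156 to 16539 and 5001 to 6726 CPM, with 7 of 9 lower. Crypt base stem cell markers (8 genes) went the other way, from 97.5 to 201 CPM up to 403 to 515 CPM, with 5 of 8 higher. Goblet cell markers (6 genes, all tested) had 0 higher and 0 lower, with a median log2 fold change of −0.18. In that list wild-type mouse 1 stood apart, as given above. For endothelium, itself a source of Edn1, the summed level of 7 markers was 5.71 to 8.43 CPM in the wild-type and 6.79 to 7.70 CPM in the double mutant, with overlap. Of 5 tested endothelial markers 2 were lower and none was higher, with a median log2 fold change of 0.48. The 2 were Plvap and Prox1. Plvap had 25, 14 and 12 counts in the wild-type and 0 in each double mutant mouse, and Prox1 had 31, 22 and 27 counts against 6, 2 and 1, while the defining marker Kdr had at most 2 counts. Prox1 overlaps a noncoding gene of the opposite strand. Which cell type gave the few counts of Plvap and Prox1 was not tested, so they cannot be read as a loss of endothelium. Tek, a receptor of the endothelium, had 25, 20 and 33 counts in the wild-type and 55, 48 and 52 in the double mutant (adjusted p = 0.0526). Immune cell markers (11 genes) summed to 78.4 to 151 and 65.1 to 107 CPM, with overlap between the groups, 2 of 8 tested lower and a median log2 fold change of −0.82. Their part in the change of Edn1 was not tested.

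For each tested ligand, the 2 genes with the closest profile over the 6 libraries were found by the root mean square difference between centred log2 CPM values. For Edn1 they were Rgs13, a regulator of G protein signalling (0.278), and Gm15674 (0.308). Rgs13 had 330, 127 and 241 counts in the wild-type and 31, 11 and 36 in the double mutant, a likeness that the choice of the gene fixes. For Ihh they were Atp6v1d, a subunit of the proton pump of vesicles (0.0319), and Arhgdia (0.0332). For Pdgfa they were Nr1i2, a xenobiotic receptor (0.0317), and Taf8, a subunit of the general transcription factor TFIID (0.0360). For Vegfa they were Gm17334 (0.0769) and Zfp498 (0.0835). The neighbours of Edn1 were the least close of the 4 pairs.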

How the data were processed

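Polyadenylated RNA of villus epithelium from 6 mice was sequenced as 1 library per mouse. Per the labels and the study's methods, HISAT2 (mm9) and featureCounts were used by the authors, and the deposited values are raw counts per gene, neither normalized nor pooled. The strand setting is not given in the sources used here, and the labels and the methods differ in the EDTA step. Of 20073 Ensembl identifiers, 20032 were found in GENCODE vM1 (mm9), and 336 numbered transcripts lie outside it.

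Counts were filtered by filterByExpr, scaled by TMM and fitted in edgeR 4.0.16 (R 4.3.3; glmQLFit robust, glmQLFTest), with Benjamini-Hochberg adjustment over 13346 features and a threshold of 0.05. CPM are TMM-scaled. SE is the size of the log2 fold change over the square root of F. The p-values measure the spread between mice. An exact permutation test of 3 against 3 cannot go below 0.1 and was not used. Alternatives were DESeq2 1.42.0, limma-voom (limma 3.58.1), RLE factors, library size alone, other filters (none, or 10 counts in every library of 1 group), sex as a covariate, a replicate block and leaving out each mouse, with the females alone and a sex term chosen after seeing the data. The script was tested on simulated counts.

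The members and gene lists were chosen with earlier results of these data known. Named genes are the 5 ligands, their receptors, Smad4, Ctnnb1, 3 hedgehog target genes, up to 4 called genes with the largest change per list, and the 2 nearest profiles per ligand, while Ece1, Dhh, Hhat, Adam17, Vegfc, Slc2a1, Higd1a and the marker genes were named after their values were seen. Replicate numbers are not stated to mark a litter or day, so they were not used as pairs.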

Additional observations from a re-analysis of the deposited data

Results flagged for a closer look

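A term for sex by genotype, chosen after seeing the data, passed an adjusted p of 0.05 in edgeR for 2 of the hypoxia-responsive genes and for none of the 4 tested ligands. Over all features it passed for 353 of 13346. Each group held 1 male, so sex and the single mouse cannot be told apart, and the spread in this fit comes from the females alone, with the males assumed to vary like them. For Slc2a1, a glucose transporter, the log2 fold change in the male pair exceeded that in the females by 1.46 (adjusted p = 0.0216). The male wild-type mouse had 135 counts of Slc2a1 and the females 309 and 367, while the double mutant mice had 714, 835 and 793, and the gene overlaps a transcript of the opposite strand. For Higd1a, a mitochondrial protein, the interaction was −1.17 (adjusted p = 0.0326), with 1836 counts in the male wild-type mouse, 966 and 1191 in the females, and 722, 1274 and 1130 counts in double mutant mice 1 to 3. Wild-type mouse 1, the male, is also the mouse with 119 CPM of goblet cell markers.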

How the results depend on the processing

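Edn1, Edn3, Vegfb, Efna1, Ankrd37, Car9, Pdk1, Egln3 and Smad4 kept their direction and their call in every alternative. Ligands called numbered 2 in DESeq2 and with RLE factors and 1 otherwise, and hedgehog ligand and release genes likewise numbered 2 with those and 0 to 1 with a mouse left out. Ihh was −0.33 in both. The HIF list held 3 called genes in DESeq2, 2 with RLE factors, 0 with library size alone and 0 to 1 with a mouse left out. In females only, the hedgehog reception list held 1 and the PDGF list 2; with a mouse left out they held 0 to 1 and 0 to 2, the endothelin list 3 to 5 and the other vascular factors 1 to 2. Signs turned for Vegfa (0.0022 with library size alone, −0.37 to 0.0058 with a mouse left out), Pdgfa (−0.0215 to 0.14 with a mouse left out), Ctnnb1 (0.0462 with library size alone) and Ptch1 (0.0727 with library size alone, −0.27 to 0.055 with a mouse left out). Pdgfrb was −0.26 in limma-voom, −0.0047 with RLE factors, −0.0738 with the replicate block, −0.0246 with sex as a covariate, −0.40 in females only and −0.42 to 0.51 with a mouse left out. The cause was not tested.

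Same-numbered mice of the 2 groups did not deviate together (r = 0.022, −0.109 and 0.012). Correlations over all genes in so few mice cannot exclude a shared litter or day, so whether the numbers pair the mice is not known. With the replicate block 3834 features passed, against 4905 without it, the Ece1 call was lost (adjusted p = 0.0703), and the ligands called stayed at 1. Shh had at most 15 counts in any mouse, and Smo at most 41.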
